A study of Mus musculus with 8 samples.

Results

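The genes described here encode the 3 regulators of calcineurin, Rcan1, Rcan2 and Rcan3, and the 5 factors of the NFAT family, Nfatc1, Nfatc2, Nfatc3, Nfatc4 and Nfat5. They were chosen by gene symbol from an annotated list of KLF13 peaks, in which all 8 genes had an assigned peak and 12 of the 9506 peaks carried one of their symbols. The peaks came from HT22 cells, an immortalised mouse line derived from hippocampal neurons, that stably made the biotin ligase BirA (genotype HT22-BirA). Cells were transfected with the plasmid pTO-Klf13Bio, which gives a biotinylated form of the zinc finger transcription factor KLF13, and chromatin was taken after 24 h. The 4 KLF13 ChSP libraries came from chromatin streptavidin precipitation, and the 4 input libraries had no precipitation; both groups carried BirA and the plasmid. No precipitation from cells without tagged KLF13 is among the libraries, so capture of other material on streptavidin and KLF13 binding cannot be told apart. Libraries are numbered within each group in the labels, with no word on whether each number was its own culture.

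Calcineurin is a phosphatase switched on by calcium and calmodulin. It removes phosphates from NFATc factors, which then enter the nucleus, and RCAN proteins bind calcineurin and can inhibit it. NFAT5 shares the DNA-binding domain of the family but answers to osmotic stress and not to calcineurin. In hippocampal neurons calcineurin is known for its part in long-term depression, and NFATc4 for carrying calcium channel activity to the nucleus. KLF13 belongs to a group of factors that bind GC boxes and CACCC boxes and can recruit the SIN3 corepressor. Expression was not measured in these libraries, so a peak here says nothing of whether a gene was on or changed.

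The list gave, for each peak, a linear fold of ChSP over input, a p and an adjusted p (not used here), all of them the authors' values over the 8 libraries together. These columns had no descriptive names and were identified from their order in a PePr list and from their values, and the scaling of the libraries behind the fold is not known here. The list held no value per library, so no fold below has a replicate error, the depth is unknown, and no comparison was tested. The members were picked from this same contrast, and their folds are therefore given as a description. Over the whole list the fold ran between 2.10 and 87.6, with a median of 21.1 and quartiles of 15.5 and 28.6, and the largest p was 9.99e-06. Promoter peaks are those that lay, by the authors' distance, no more than 1 kb from a TSS, a transcription start site. All 8 members had an assigned peak, where 33.6% of 21900 protein-coding genes did, and all 8 had a promoter peak, where 30.9% of those genes did. Since an assigned peak was the ground for choosing them, nothing is read from these shares.

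The sequences at the members' starts are given first, because the peaks followed some starts and not others. RefSeq windows of 300 bases on GRCm38.p6, with 250 bases before the start and 50 from it on, were matched by symbol for 7 of the 8 members (none for Nfatc1) and gave 12 starts. A start was counted as inside a peak when its own base lay in one. The windows below are those of the member with the highest fold, of a pair of starts in each of Rcan1 and Rcan2 that a peak separates, of the Nfatc2 start in a peak with neither box, and of the Nfatc4 start that its peak misses. They are written in the direction of transcription, and capitals mark GGGCGG (a GC box) and CACCC on either strand.
Rcan3 start, inside a peak (chr4:135433756-135434055, minus strand): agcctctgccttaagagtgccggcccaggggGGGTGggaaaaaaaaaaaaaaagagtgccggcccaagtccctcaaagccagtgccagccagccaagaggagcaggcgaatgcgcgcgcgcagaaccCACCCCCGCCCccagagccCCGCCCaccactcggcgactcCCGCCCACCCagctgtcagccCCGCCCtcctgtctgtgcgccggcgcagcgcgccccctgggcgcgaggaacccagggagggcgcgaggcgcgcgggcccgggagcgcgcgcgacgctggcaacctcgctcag
Rcan1 first start, inside a peak (chr16:92466120-92466419, minus strand): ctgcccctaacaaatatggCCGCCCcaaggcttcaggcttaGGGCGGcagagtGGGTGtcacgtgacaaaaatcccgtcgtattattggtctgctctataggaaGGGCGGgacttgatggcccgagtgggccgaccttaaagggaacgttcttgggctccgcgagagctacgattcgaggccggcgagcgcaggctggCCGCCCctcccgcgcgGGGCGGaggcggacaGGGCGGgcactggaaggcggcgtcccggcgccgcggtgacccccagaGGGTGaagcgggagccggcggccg
Rcan1 second start, outside a peak (chr16:92400029-92400328, minus strand): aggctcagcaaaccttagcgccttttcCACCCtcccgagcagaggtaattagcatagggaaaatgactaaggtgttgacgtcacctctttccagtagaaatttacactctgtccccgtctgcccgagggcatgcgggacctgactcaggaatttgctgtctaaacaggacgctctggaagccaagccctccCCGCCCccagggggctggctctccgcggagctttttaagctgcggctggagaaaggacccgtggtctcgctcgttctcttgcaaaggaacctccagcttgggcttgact
Rcan2 first start, outside a peak (chr17:43801102-43801401, plus strand): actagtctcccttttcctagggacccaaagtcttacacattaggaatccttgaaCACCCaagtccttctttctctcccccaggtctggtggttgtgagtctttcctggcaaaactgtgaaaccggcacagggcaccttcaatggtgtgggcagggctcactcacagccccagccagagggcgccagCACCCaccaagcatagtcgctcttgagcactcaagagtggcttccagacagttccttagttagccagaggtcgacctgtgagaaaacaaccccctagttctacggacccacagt
Rcan2 second start, inside a peak (chr17:43801601-43801900, plus strand): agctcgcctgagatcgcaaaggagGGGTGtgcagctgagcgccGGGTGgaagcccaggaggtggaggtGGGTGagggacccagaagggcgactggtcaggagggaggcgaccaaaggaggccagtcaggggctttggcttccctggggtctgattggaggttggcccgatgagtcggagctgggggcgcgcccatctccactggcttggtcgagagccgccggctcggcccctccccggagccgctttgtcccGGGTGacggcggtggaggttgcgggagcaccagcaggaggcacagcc
Nfatc2 first start, inside a peak (chr2:168601608-168601907, minus strand): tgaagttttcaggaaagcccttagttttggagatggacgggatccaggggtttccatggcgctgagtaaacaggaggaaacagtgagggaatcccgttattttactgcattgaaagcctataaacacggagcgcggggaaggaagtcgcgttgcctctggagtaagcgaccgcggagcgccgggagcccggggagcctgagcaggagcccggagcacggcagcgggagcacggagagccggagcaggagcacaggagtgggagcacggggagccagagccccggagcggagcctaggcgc
Nfatc4 start, outside a peak (chr14:55824545-55824844, plus strand): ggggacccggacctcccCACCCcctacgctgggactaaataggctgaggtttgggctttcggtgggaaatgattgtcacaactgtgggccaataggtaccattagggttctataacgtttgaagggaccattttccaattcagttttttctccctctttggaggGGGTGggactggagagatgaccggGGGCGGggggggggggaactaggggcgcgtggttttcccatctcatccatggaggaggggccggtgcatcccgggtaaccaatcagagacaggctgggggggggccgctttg

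The printed windows differed in how many boxes they held. The Rcan3 window held GGGCGG 4 times and CACCC 3 times, counted on both strands, and the first Rcan1 window held them 6 and 2 times. The second Rcan1 window had 1 of each. In the second Rcan2 window, inside a peak, GGGCGG was not found and CACCC occurred 4 times, while the first Rcan2 window, outside the peak, had CACCC 2 times. The first Nfatc2 window had neither box in its 300 bases, although its start lay inside a peak.

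Rcan3 stood apart from the other members. Its encoded protein binds calcineurin like the other RCAN proteins and is the least studied of them. A peak of 700 bp over its TSS, on chromosome 4 between 135433501 and 135434200, reached a fold of 72.2, which was rank 11 of the 9506 peaks (the authors' p = 5.36e-20). The peaks next in fold were those of Bptf with 73.3, a chromatin remodeller gene, of E130006D01Rik with 72.5, of Tdrd7 with 72.0 and of Kmt2a with 72.0, a histone methyltransferase gene. The Rcan3 p was larger than that of each of these 4 neighbours, which was 9.42e-24 at Bptf, 3.43e-20 at E130006D01Rik, 2.15e-24 at Tdrd7 and 1.05e-31 at Kmt2a.

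A second Rcan3 peak lay upstream of the gene. It was 600 bp wide, at chromosome 4, 135439101 to 135439700, and its near edge stood at -5296 bp from the Rcan3 TSS (negative is upstream), with 4900 bp free of peaks between it and the promoter peak. Its fold was 55.1 (the authors' p = 6.98e-13). By p it was rank 4263 of the 9506 peaks, with a smaller p than 55.2% of the list. Its fold was rank 7 among the 1907 peaks more than 1 kb from a TSS by the authors' distance. It was rank 4 among the 698 peaks that the authors annotated as distal intergenic, whose median fold was 17.2. No gene of the RefSeq table overlapped the peak. The nearest other gene was Nipal3, to which no peak was assigned. The bounds of Nipal3 lay 3.10 kb from the peak, nearer than the Rcan3 TSS. The peak is called an Rcan3 peak by the authors' assignment.

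Rcan1 and Rcan2 had 1 peak each. Rcan1 encodes the founding member of the group, and its gene is transcribed from 2 RefSeq starts, of which the second, inside the gene, is known to be induced by calcineurin and NFAT. The only Rcan1 peak covered the first start, on chromosome 16 between 92465701 and 92466500. Its fold was 29.4 (the authors' p = 4.87e-20), and it also overlapped the long noncoding RNA gene Gm46555. The second start, 66.1 kb further on, had no peak, and the nearest edge of the Rcan1 peak stood at -65.6 kb from it. Its window held GGAAA, the core that NFAT factors bind, 3 times, against 0 in the window of the first start. The Nfatc4 window and the first Nfatc2 window also held GGAAA 3 times, and 59.9% of all protein-coding windows held it. A link of these letters to NFAT was not tested.

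The Rcan2 peak lay on chromosome 17 between 43801601 and 43802300, with a fold of 24.6 (the authors' p = 1.26e-13). It covered the second of 3 RefSeq starts. The first start, 499 bp before the second, lay 249 bp outside the peak, and the third start, 151.6 kb from the first, had none near it.

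**Figure D1:**
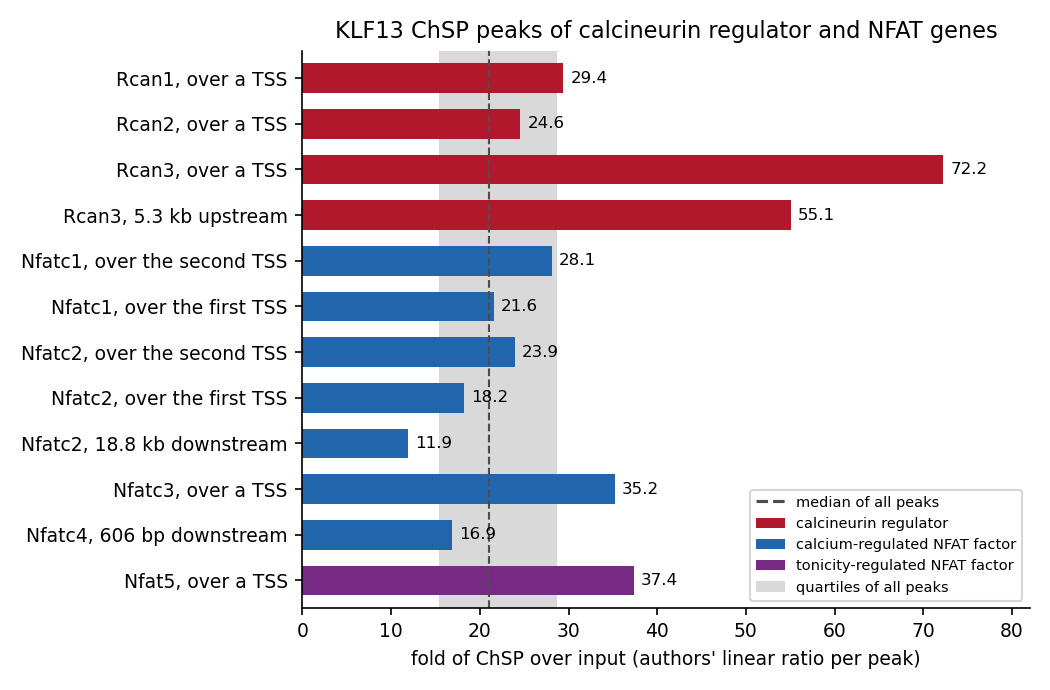
Fold of ChSP over input (x axis, the authors' linear ratio) for each of the 12 peaks, named by gene and place relative to the TSS; colours give the kind of gene, the dashed line the median of all 9506 peaks (21.1) and the grey band their quartiles (15.5 and 28.6). Both Rcan3 peaks, with 72.2 and 55.1, lie beyond every other bar, and the intragenic Nfatc2 peak, with 11.9, is the lowest.

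The calcium-regulated NFAT genes had 7 peaks, 6 of them at promoters, with promoter folds between 16.9 and 35.2. Nfatc3 had the highest. Its single peak at chromosome 8, 106059201 to 106060200, had a fold of 35.2 and the smallest p of all members (3.11e-28), smaller than that of 97.7% of the list. It covered the second of 2 RefSeq starts, while the first, 772 bp before it, lay 383 bp outside the peak.

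Nfatc1 and Nfatc2 each had a peak over each of 2 starts. Nfatc1 is a gene that immune cells express from an inducible first promoter and a second promoter further in. Its starts lay 4.90 kb apart in the authors' annotation, and the peaks over them were separated by 3700 bp. Over the first Nfatc1 start, on chromosome 18 between 80712501 and 80713500, the fold was 21.6 (the authors' p = 2.29e-16). The second Nfatc1 start had the higher fold, 28.1, with the larger p (1.6e-11), at 80707601 to 80708800. Fold and p therefore ranked these peaks in opposite order.

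Nfatc2, a main NFAT factor of T cells, had the most peaks of the members. A fold of 18.2 (the authors' p = 3.19e-10) was found over its first start, on chromosome 2 between 168601401 and 168601900. Over its second start, 11.3 kb further on and between 168589901 and 168590700, the fold was 23.9 (the authors' p = 6.85e-14). The remaining Nfatc2 peak, inside the gene at 168570801 to 168571600, lay 18.8 kb downstream of the second start and was annotated as 5' UTR; its fold of 11.9 was the lowest of the members, above that of 11.0% of the list. In both genes the peak at the second start had the higher fold. Of the 7800 genes with an assigned peak, 15.8% had at least 2 peaks and 3.79% at least 3; among the 8 members, 3 had at least 2 peaks and 1 had 3.

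Nfatc4, the NFAT factor best known from hippocampal neurons, had the promoter peak with the lowest fold of the members. The peak was 400 bp wide, at chromosome 14, 55825401 to 55825800, with a fold of 16.9 and a p of 1.22e-07, the largest p of the 12 peaks. It did not cover the TSS but began 606 bp downstream of it. The 1231 promoter peaks of the list that begin downstream of their TSS had a median fold of 16.9. Nfat5, the osmotic stress factor, had the widest peak of the members, 1400 bp over its TSS at chromosome 8, 107293101 to 107294500, with a fold of 37.4 (the authors' p = 7.27e-26).

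**Figure D2:**
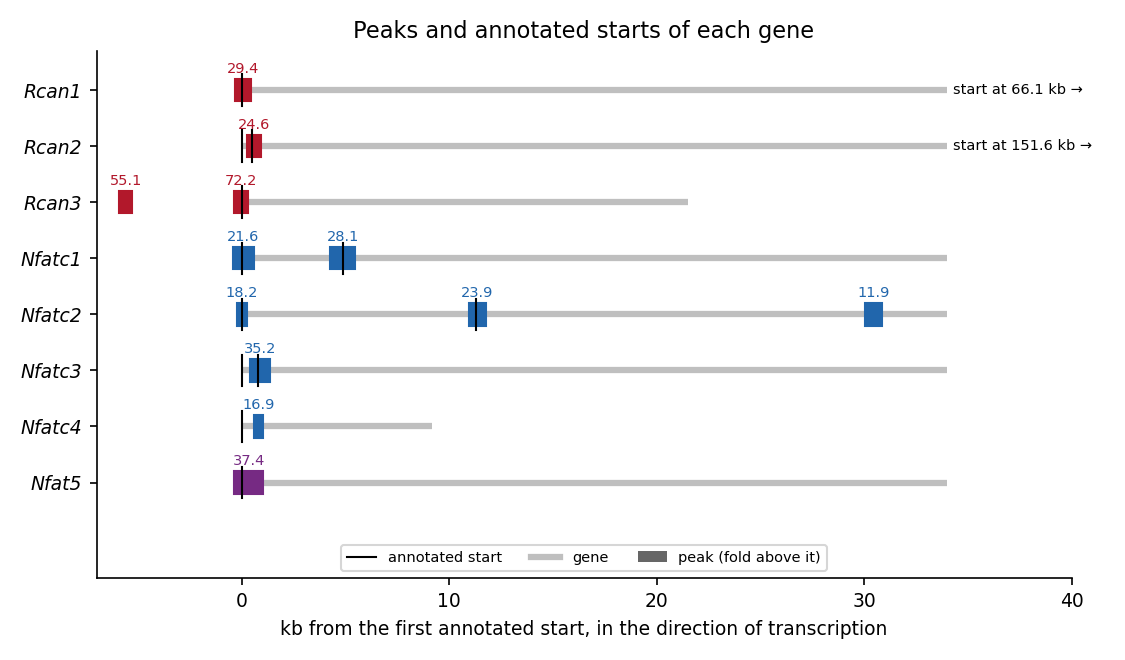
Peaks (coloured boxes with their fold) and annotated starts (black ticks) of each gene, by distance in kb from the first start in the direction of transcription; starts are from RefSeq, and from the authors' annotation for Nfatc1. Genes longer than 34 kb are drawn only that far, and the Rcan1 and Rcan2 starts with no peak, at 66.1 and 151.6 kb, lie beyond the axis.

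Read as a set, the member peaks ranged from 11.9 to 72.2 in fold with a median of 26.4, where the median of all peaks was 21.1. The 10 member promoter peaks also had a median fold of 26.4, where that of all 7599 promoter peaks was 22.2, and 7 of the 10 lay above it. Taking the highest promoter fold of each gene, the median was 28.8 over the 8 members and 22.8 over all genes with a promoter peak. Of the 12 peaks, 9 overlapped a TSS, where 62.9% of all peaks did. The centres of these 9 peaks lay between 46 bp upstream and 330 bp downstream of the start, with a median of 68 bp downstream, and the median over all 5984 peaks on a TSS was 90.5 bp downstream. No peak within 1 kb of a member's bounds was assigned to another gene. The nearest peaks of other genes were 32.0 kb (Clic6, from Rcan1) or more away.

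**Figure D3:**
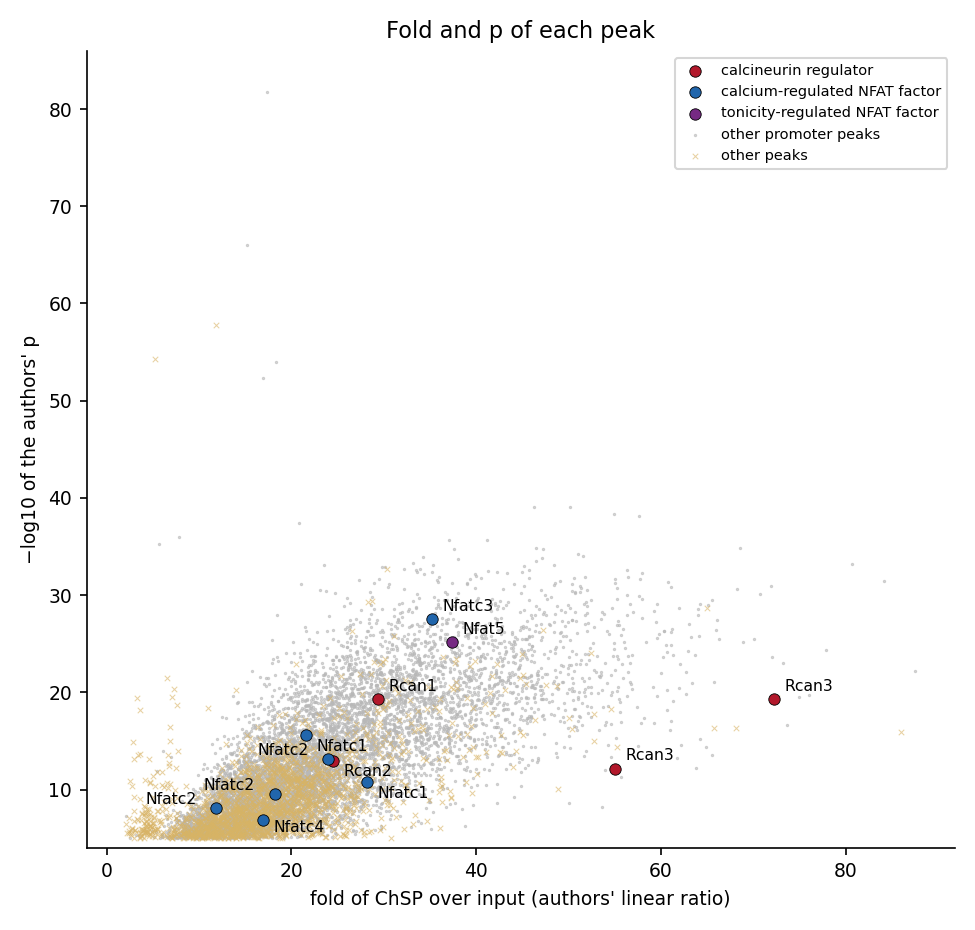
Fold of ChSP over input (x axis) against the negative log10 of the authors' p (y axis) for every peak; members are labelled, grey dots are other promoter peaks and yellow crosses other peaks. Nfatc3 and Nfat5 have the smallest p of the members (3.11e-28 and 7.27e-26) at folds of 35.2 and 37.4, and both Rcan3 peaks lie to the right at larger p.

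The starts inside and outside peaks differed in CG content. Of the 12 member starts, 7 lay inside a peak, where 24.8% of 21263 RefSeq starts of protein-coding genes did. Since an assigned peak was the ground for choosing the members, nothing is read from this share. The windows of these 7 starts held 20 to 33 CG dinucleotides, with a median of 31, and the windows of the 5 starts outside a peak held 5 to 14, with a median of 7. The groups did not overlap. The first Rcan1 start had 33 CG and the second 14; the second Rcan2 start had 20 CG, the first 5 and the third 7; the second Nfatc3 start had 32 CG and the first 7. The Nfatc4 start, which its peak missed, had 11 CG, while Nfat5 had 31 and both Nfatc2 starts had 23 and 20.

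The same difference was seen over all protein-coding starts. All starts inside a peak had a median of 29 CG per window, and all starts outside one a median of 7. A start lay inside a peak in 58.5% of the 7641 windows with 20 or more CG, in 16.4% of the 4426 windows with 10 to 19, and in 0.816% of the 9196 windows with 9 or fewer. In 811 genes 1 start lay inside and another outside a peak, and in 95.2% of them the starts inside had more CG on average; the 3 members among them, Rcan1, Rcan2 and Nfatc3, all did. The bands of CG count were chosen after the member values were seen. CG content also moves with GC content (medians of 68.3% in the 7 member windows inside a peak and 54.0% in the 5 outside), and its part in the result was not tested.

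**Figure D4:**
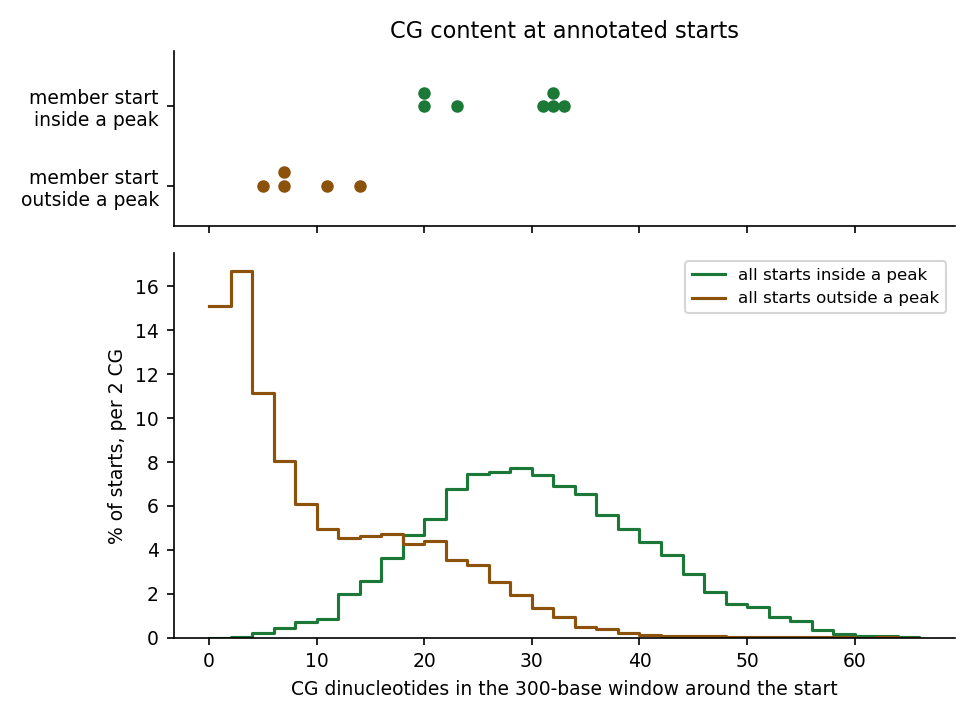
CG dinucleotides per 300-base window around a start (x axis). The upper panel has 1 point per member start, those inside a peak (20 to 33) above those outside (5 to 14); the lower panel gives the share of all protein-coding starts inside and outside a peak per 2 CG.

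Boxes were compared by presence in a window, a coarser measure than the CG counts above. By number of copies, GGGCGG had a median of 2 in the 7 member windows inside a peak and of 0 in the 5 outside. These medians were the same over all starts inside and outside a peak. CACCC had medians of 1 and 2 in the member windows. GGGCGG was present in 5 of the 7 member windows inside a peak and in 2 of the 5 outside, and in 46.2% of all windows (84.2% of those with the start inside a peak and 33.7% of the others). Its longer form GGGGCGGGG, which contains GGGCGG and is also counted there, was present in 4 of 7 and 2 of 5 windows and in 15.4% of all (34.7% inside and 8.96% outside). CACCC was present in 6 of the 7 windows inside a peak and in all 5 outside, and in 59.5% of all windows (68.2% inside and 56.7% outside). The member shares for CACCC thus ran the other way from those of all windows. GGAAA was present in 4 of the 7 and in 4 of the 5, and in 59.9% of all windows (45.7% inside and 64.6% outside). Windows with neither GGGCGG nor CACCC made up 4.95% of those with the start inside a peak and 31.7% of the others, and the first Nfatc2 window was the only one among the members. These counts describe letters in a short window and not binding sites.

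The remaining genes of the pathway also had promoter peaks in large part. Of 34 genes listed by role, 25 had one, with a median fold of 28.1, where 30.9% of protein-coding genes had one. The list was chosen with earlier results of these data known. CG content at its starts was not compared with that of all genes, so nothing about the pathway is read from this count. Calcineurin itself had peaks at 4 of 5 subunit genes. The highest fold, 49.2, was that of the catalytic subunit gene Ppp3cb (the authors' p = 1.41e-23). The catalytic subunit genes Ppp3ca and Ppp3cc had 23.9 and 26.3, and the regulatory subunit gene Ppp3r1 had 26.5. Ppp3r2, the regulatory subunit gene of testis, had none.

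Upstream of calcineurin, genes of store-operated calcium entry had promoter peaks at 6 of 8. The calcium sensor gene Stim1 had a fold of 52.2, its paralogue Stim2 33.5 and the channel gene Orai1 26.5. The other 3 peaks were low, with folds of 13.3 at the channel gene Orai2 and of 14.2 and 14.8 at the calcium release channel genes Itpr2 and Itpr3, all under the lower quartile of the list. The median of the 6 genes was 20.7, where that of all promoter peaks was 22.2. The channel gene Orai3 and the calcium release channel gene Itpr1 had none. Apart from Stim1, Stim2 and Orai1, these genes were named after their values were seen. Among genes that restrain or anchor calcineurin, 3 of 5 had a promoter peak. Ppia and Fkbp1a, whose products inhibit calcineurin when bound by the drugs ciclosporin and FK506, had folds of 32.5 and 27.7, and the anchor gene Akap5 had 16.2. Cabin1 and Chp1, which encode inhibitors of calcineurin, had none.

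Kinases that phosphorylate NFAT again and send it out of the nucleus had promoter peaks at 5 of 7 genes. The highest folds were 36.2 at Dyrk2, 33.9 at Dyrk1a and 33.0 at Csnk1e. Gsk3b and Csnk1a1, named after their values were seen, lacked one by assigned symbol. Within 1 kb of the bounds of Gsk3b, a peak with a fold of 14.0 carried the symbol of the gene model BC031361. Other substrates of calcineurin had promoter peaks at 4 of 6 genes, with folds of 34.8 at Mef2a, 28.1 at Tfeb, the lysosome regulator, and 27.8 at Mef2d. Mef2b and Mef2c, named after their values were seen, had none.

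**Figure D5:**
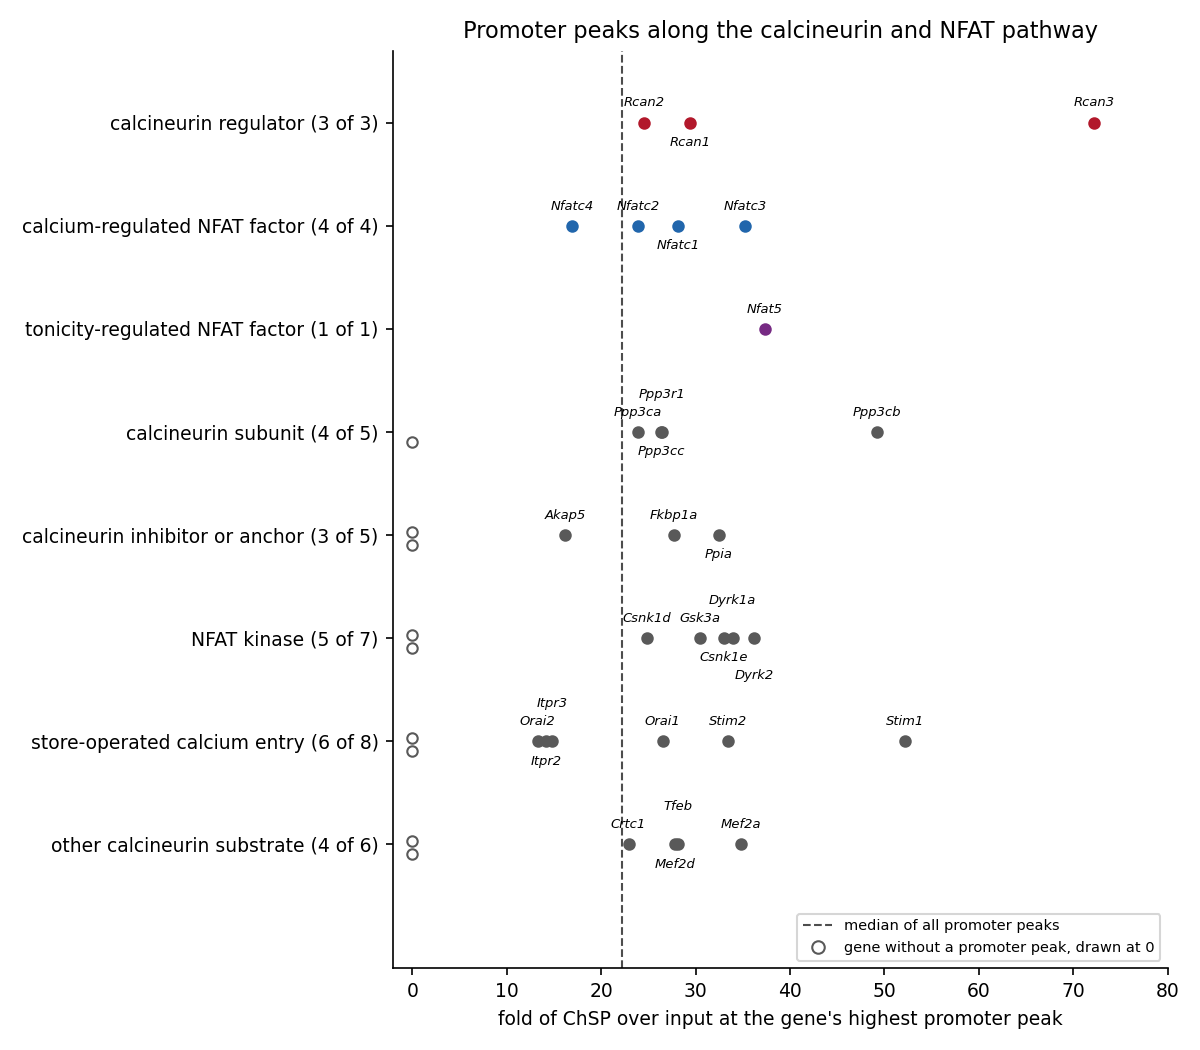
Fold of ChSP over input at the highest promoter peak of each gene (x axis) by role, the genes described here in colour above genes of 5 other pathway roles in grey; open circles at 0 are genes with no assigned promoter peak, and the dashed line is the median of all promoter peaks (22.2). Rcan3, with 72.2, lies above Stim1 (52.2) and Ppp3cb (49.2).

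Other signalling families are given for their values alone. A promoter peak was assigned to 4 of 5 genes of the NF-kB factors, which share the Rel homology fold with NFAT. The same held for 7 of 8 CREB factors and coactivators and 6 of 11 calcium/calmodulin-dependent kinases, where 30.9% of protein-coding genes had one. The count of the members is not set beside these, since an assigned peak was the ground for choosing them. The median promoter fold per gene was 28.8 in the members, 31.6 in the NF-kB genes, 29.5 in the CREB genes and 23.7 in the kinase genes. By assigned symbol, the highest folds were 72.2 at Rcan3, 33.9 at Relb, 37.4 at Atf1 and 26.2 at Camkk2. The values of the compared lists depend on that assignment. Within 1 kb of the bounds of Camk2g and Camkk1, peaks with folds of 52.5 and 22.8 carried the symbols of other gene models. Both are among the 5 kinase genes without an assigned promoter peak. Nfkb2 and Crtc2, the only NF-kB and CREB genes without one, had peaks with folds of 14.0 and 21.1 there under other symbols. Nfkb2 also had a peak under its own symbol, with a fold of 15.4, that lay 2971 bp from a TSS. All of these genes were named after their values were seen. These counts were not tested against each other, and Crtc1 stands in the CREB list and in the pathway list. The compared lists too were chosen with earlier results of these data known.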

How the data were processed

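Chromatin from 4 KLF13 ChSP and 4 input libraries was sequenced, per the labels. The deposited list holds 1 line per peak over all libraries; its name gives PePr as the caller, with version and settings not given in the sources used here. Without stating roles, the submitters' processing notes list the build GRCm38 and the tools HOMER 4.9.1, ChIPseeker 1.16.1, FastQC 0.11.3 and BWA 0.7.17-r1188. The authors computed the fold (read as ChSP over input, a linear ratio), its p-value, and an unused score, which equals the fold times a constant. Widths, distances to the TSS and gene symbols are other columns deposited by the authors, with peak edges in steps of 100 bp.

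Members were matched by symbol, and protein-coding genes by gene identifier to a RefSeq table on GRCm38.p6. Each peak is assigned to 1 gene, so a shared promoter counts once. Named genes were the 8 members, all genes of pathway roles with 5 or fewer genes, the 3 highest folds of other roles, the highest of each other list and the peaks next to the highest member peak. Genes of 1 pathway role are in the count over the pathway but are not reported here by gene. Motifs were counted on both strands with overlaps. Motif counting, distances and merging were tested on simulated data. Members and lists were chosen with earlier results of these data known. No test was run, since the list has 1 value per peak. A planned comparison of protein sequences was not run. Scripts ran under Python 3.11.15 with matplotlib 3.10.9, scipy 1.17.1, numpy 2.4.6 and pandas 2.3.3.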

Additional observations from a re-analysis of the deposited data

How the results depend on the processing

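No paired analysis was possible because each peak has a single value made from the 8 libraries together, and for the same reason no library could be left out in turn. Of the 8 members, 7 kept a promoter peak in the 4753 peaks of smallest p and in those at or above the median fold, in both cases all but Nfatc4. Without the 5% widest peaks 7 kept one, all but Nfat5, and with peaks that overlap the TSS 7 did, all but Nfatc4. All 8 kept one within 3 kb of a TSS and with peaks less than 1 kb apart merged. The median fold of member peaks ran from 24.6 to 32.3 over these settings. The pathway count of 25 genes ran from 19 without the widest peaks to 26 with any peak in the gene bounds widened by 1 kb. The share of protein-coding genes with a promoter peak was 18.6% with the smallest p, 18.0% at or above the median fold, 29.4% without the widest peaks, 31.6% within 3 kb, 25.8% with the TSS overlapped and 37.0% by gene bounds; each setting keeps other peaks or genes by construction. As alternatives chosen after seeing the data, 10 of the 12 member starts had a peak within 1 kb, 7 had a window that overlapped one, and 6 lay inside a peak of the smallest p. Depth is unknown, so a start or gene without a peak may lie below what these libraries could detect.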

Other observations

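Several genes of the comparison lists without an assigned promoter peak had a peak of another symbol inside their bounds widened by 1 kb, and all were named after their values were seen. A peak with a fold of 52.5 within those of the kinase gene Camk2g, at chromosome 14, 20793001 to 20794500, was assigned to the gene model Gm30108. Another peak within the widened bounds of Camk2g, with a fold of 22.4, lay over the TSS of Ndst2 and was assigned to it. A peak with a fold of 22.8 within those of the kinase gene Camkk1 was assigned to 4732414G09Rik, and a peak with a fold of 14.0 within those of Nfkb2 to 4833438C02Rik. A further peak there, with a fold of 15.4, carried the symbol Nfkb2 itself and lay 2971 bp from a TSS. Within the widened bounds of the coactivator gene Crtc2, a peak with a fold of 21.1 was assigned to Dennd4b. For such genes, counts by assigned symbol are therefore lower than counts by widened bounds. A peak within the bounds need not lie at the gene's own TSS. The 8 members had no peak of another symbol there.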
